A study of Homo sapiens with 4 samples.

Results

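The genes described here encode 8 proteins of the mitochondrion that are tied to its response to low oxygen: the mitophagy receptors BNIP3, BNIP3L and FUNDC1, the hypoxia-induced proteins FAM162A, HIGD1A, NDUFA4L2 and COX4I2, and the protease LONP1. They were chosen by symbol, and all 8 were found by their GENCODE identifiers among the 65217 genes of the deposited count table. The cells were SEM, an established human leukaemia line with the KMT2A-AFF1 (MLL-AF4) fusion, grown at 21% oxygen before they were injected into immunodeficient mice aged 6 to 10 weeks; the strain is not given in the sources used here. Of the 4 RNA sequencing libraries, 2 held leukaemic cells recovered from brain (the leptomeninges, per the protocol) and 2 held cells of the same line from spleen. No group had a further treatment or genetic change, each library combined RNA of 5 mice, and the replicate number stands for 1 of 2 occasions on which the whole experiment was done. The groups were compared to ask whether these genes differed between leukaemic cells lodged at the 2 sites.

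Mitophagy is the removal of mitochondria by autophagy. Receptors in the outer mitochondrial membrane carry a short motif that binds LC3 and GABARAP proteins on the growing autophagosome. BNIP3 and its paralogue BNIP3L (also called NIX) are induced by the hypoxia-inducible factor HIF, whereas FUNDC1 is regulated mainly by phosphorylation. HIF also changes the respiratory chain: COX4I2 can replace COX4I1 in cytochrome c oxidase, a swap for which LONP1 degrades the older subunit, and NDUFA4L2, a relative of NDUFA4, lowers respiratory activity. BNIP3L is best known in blood cells for clearing mitochondria from maturing red cells.

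The gene counts summed to between 26266136 and 36913437 per library, and 17075 genes passed the filter on low counts. PAX5, a B-lineage marker, was high in all libraries (654 to 901 CPM, that is, counts scaled to the library size with TMM factors). SNAP25 of neurons had 0 counts and HBB of red cells at most 2. Some other B-lineage markers differed more between the sites. IGLL1 had 78.9 and 105 CPM in brain and 8.86 and 21.5 CPM in spleen. CD79B had 89.3 and 91.5 CPM in brain and 26.5 and 46.0 CPM in spleen. Of the B-lineage markers read, VPREB1 alone had a negative log2 fold change (-0.33). The adjusted p by edgeR was 0.119 for IGLL1, 0.0731 for CD79B and 0.284 for VPREB1. Markers of T cells summed to 104 to 138 CPM, nearly all of it TRAC (103 to 138 CPM), with CD3D at 0 counts and CD3E at most 2. Myeloid markers summed to 26.8 to 34.5 CPM, mostly CSF1R (22.9 to 30.3 CPM), with CD14 at 3 to 9 counts. The part of other cell types in the results was not tested. Counts on mouse transcripts, an index of host RNA, made up 1.45% to 2.24% of a brain library and 4.31% to 6.32% of a spleen library, and their part in the results was not tested. Spleen replicate 2 stood apart by base composition: the 20% of genes lowest in GC lay at a median of -0.38 (log2) from their mean over the libraries there, against 0.13 to 0.15 elsewhere. By length the sites differed: the 20% of genes that were longest lay at 0.134 and 0.129 in brain and at -0.039 and -0.183 in spleen.

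Of the 8 members 3 rose in brain, 0 fell, 4 did not pass and 1, COX4I2, had no counts at all (edgeR's quasi-likelihood test, Benjamini-Hochberg adjusted p under 0.05 over all genes). Over all genes tested, 2.02% were called, 1.63% as higher and 0.387% as lower. The members that rose were BNIP3, 4.56-fold, BNIP3L, 2.96-fold, and FAM162A, 1.79-fold. FUNDC1, HIGD1A, LONP1 and NDUFA4L2 had log2 fold changes between -0.34 and 0.57. The median of the 7 members tested was 0.57, against 0.036 over all genes. This median is the value of NDUFA4L2, a gene of low counts that did not pass. FUNDC1, HIGD1A and LONP1 had negative log2 fold changes. At an unadjusted p under 0.05 edgeR counted 3 members as higher and 0 as lower, where 10.7% and 9.94% of all genes were so counted. DESeq2 called the same 3.

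The windows before the start sites of 4 members are shown to compare them for the core letters of the HIF response element, which 3 of them hold and that of FUNDC1 does not. They are the 250 bases before the RefSeq start (GRCh38.p14), read 5′ to 3′ on the gene's strand, with every match to ACGTG or GCGTG on either strand in capitals. An ACGTG inside CACGTG counts on both strands.
BNIP3: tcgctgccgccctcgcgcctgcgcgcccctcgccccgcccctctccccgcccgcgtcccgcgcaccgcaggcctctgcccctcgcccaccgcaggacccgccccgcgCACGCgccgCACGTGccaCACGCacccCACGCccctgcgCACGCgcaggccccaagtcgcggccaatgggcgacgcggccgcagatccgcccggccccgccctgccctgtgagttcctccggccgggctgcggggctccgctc
FAM162A: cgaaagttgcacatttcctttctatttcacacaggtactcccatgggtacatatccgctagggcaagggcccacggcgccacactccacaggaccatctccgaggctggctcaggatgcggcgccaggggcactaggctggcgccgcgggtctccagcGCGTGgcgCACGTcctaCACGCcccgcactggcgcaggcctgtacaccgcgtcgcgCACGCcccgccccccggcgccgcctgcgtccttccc
HIGD1A: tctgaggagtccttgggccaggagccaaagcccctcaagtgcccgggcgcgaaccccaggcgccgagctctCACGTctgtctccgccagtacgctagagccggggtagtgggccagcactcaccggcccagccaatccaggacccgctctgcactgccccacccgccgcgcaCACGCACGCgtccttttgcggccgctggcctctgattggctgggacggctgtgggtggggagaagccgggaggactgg
FUNDC1: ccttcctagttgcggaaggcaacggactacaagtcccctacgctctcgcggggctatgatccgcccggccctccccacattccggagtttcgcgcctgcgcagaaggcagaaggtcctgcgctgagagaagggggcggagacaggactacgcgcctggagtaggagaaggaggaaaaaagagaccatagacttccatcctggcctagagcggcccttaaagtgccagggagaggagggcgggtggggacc
The windows are chr10:131981924-131982173 (minus strand), chr3:122383932-122384181 (plus), chr3:42804491-42804740 (minus) and chrX:44542860-44543109 (minus). The BNIP3 window held 6 matches, with first bases from 143 to 104 before the start, and its GC content was 81.6%. That of FAM162A held 4 matches, from 92 to 36 before the start. HIGD1A, which did not pass, held 3, and FUNDC1 held 0. LONP1 has 2 windows in the table, with 6 matches and 1. By this count, which takes each CACGTG on both strands, BNIP3 and 1 window of LONP1 reached 6, and only BNIP3 was called. A link between matches and calls was not tested. Of 35116 windows of this length, 18.5% held ACGTG, 32.2% held GCGTG, 43.2% held either, 3.22% held at least 4 matches and 0.646% held at least 6, at a median GC content of 58%. A match is a description of letters and not a binding site. Windows of 5 of the 8 members were matched, and those of BNIP3L, NDUFA4L2 and COX4I2 were not analysed here.

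**Figure D1:**
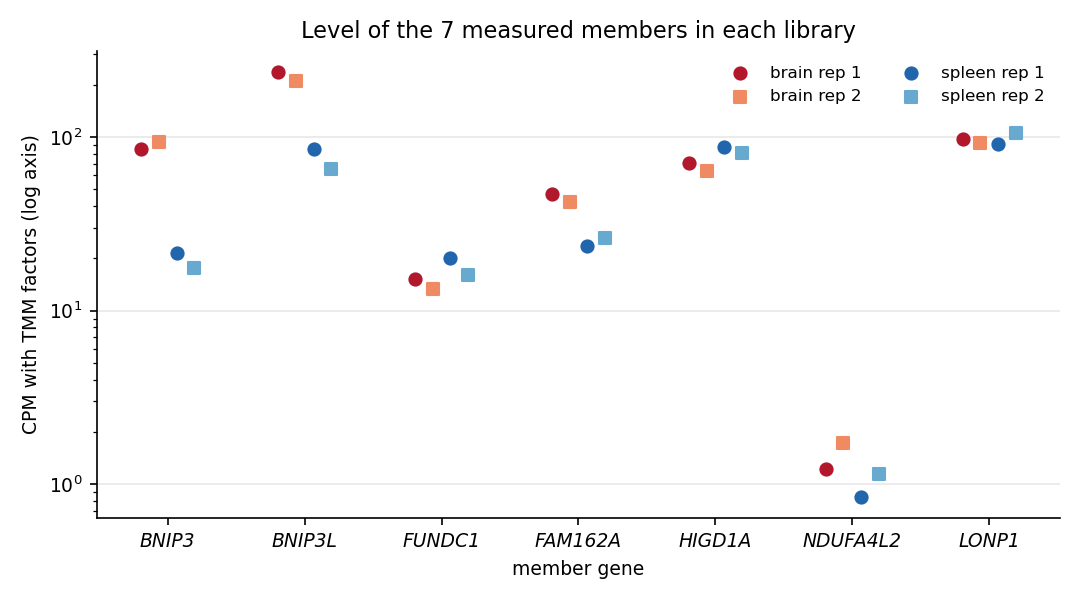
Level of each measured member in the 4 libraries, in CPM with TMM factors on a log axis; each point is a library, red or orange for brain and dark or light blue for spleen. BNIP3 (85.3 and 93.4 CPM in brain, 21.5 and 17.6 in spleen) and BNIP3L stand widest apart, while the points of LONP1 overlap.

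Among the mitophagy receptors, BNIP3 (ENSG00000176171, chromosome 10, 131967684 to 131981967, GRCh38), which anchors in the outer membrane and binds LC3, showed the largest change of the members. Its level was 85.3 and 93.4 CPM in brain, against 21.5 and 17.6 CPM in spleen. Both brain libraries lay far above both spleen libraries. The log2 fold change was 2.19 ± 0.17 (SE; 95% interval 1.79 to 2.59; adjusted p = 0.00179), and BNIP3 ranked 16th of 17075 genes by p-value. Within the first occasion brain exceeded spleen by 1.99 on the log2 scale, and within the second by 2.41. BNIP3 has 44 annotated pseudogene copies in the table, of which 22 had counts. The copies took 5.96% and 6.62% of the counts of gene plus copies in brain and 17.2% and 17.5% in spleen. With all copies added to the gene, an alternative chosen after seeing the data, its log2 fold change was 2.01.

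BNIP3L (ENSG00000104765, chromosome 8), the close relative of BNIP3, had 236 and 210 CPM in brain against 85.3 and 65.6 CPM in spleen, again without overlap. It rose by 1.56 ± 0.17 (log2, SE; 95% interval 1.17 to 1.96; adjusted p = 0.00680) and ranked 47th by p-value. The differences within the occasions were 1.47 and 1.68. The main BNIP3L transcript is poor in GC (37.4%, under all but 6.53% of tested genes). The GC trend of spleen replicate 2 bears on such genes. The transcript is also long (3610 bases, above 72.7% of tested genes), and the longest genes differed between the sites. Once the trend with GC and length was taken out, the log2 fold change of BNIP3L was 1.21, and it was still called. The parts of GC and of length in this drop were not tested. Without spleen replicate 2 the log2 fold change of BNIP3L was 1.40.

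FUNDC1 (ENSG00000069509, chromosome X, 44523639 to 44542859), the receptor that is switched by kinases and phosphatases, did not follow the other receptors. It had 15.2 and 13.4 CPM in brain and 19.99 and 16.1 CPM in spleen. Both brain libraries were lower, by less than the test could call. The log2 fold change was -0.34 ± 0.19 (95% interval -0.77 to 0.10; adjusted p = 0.350), and it passed only without spleen replicate 2 (adjusted p = 0.0327; range over all alternatives 0.0327 to 0.911). The main FUNDC1 transcript is poor in GC (38.0%, under all but 8.42% of tested genes), and spleen replicate 2 read low for such genes. With the GC and length trend taken out, edgeR gave FUNDC1 a log2 fold change of -0.47 (adjusted p = 0.123). The median of all genes in that fit was -0.074. The part of GC was not tested. Of the 2 FUNDC1 transcripts, FUNDC1-202 is annotated without a defined coding sequence. It took 26.1% and 9.30% of the TPM of the gene in brain and 43.4% and 47.4% in spleen. TPM is a level per length. The coding transcript FUNDC1-201 had 15.2 and 16.8 TPM in brain and 15.2 and 10.3 TPM in spleen. These values overlapped between the sites, so no direction can be given for the coding form. The split between the transcripts is an estimate and was not tested.

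Per length, BNIP3L was the most abundant receptor in every library, with 112 and 96.3 TPM in brain and 40.2 and 27.3 TPM in spleen. BNIP3 had 42.9 and 48.7 TPM in brain and 10.6 and 7.79 TPM in spleen, and FUNDC1 20.5 and 18.6 against 26.8 and 19.5 TPM. The order of BNIP3 and FUNDC1 thus differed between the sites: BNIP3 was above FUNDC1 in both brain libraries and below it in both spleen libraries. BNIP3 and BNIP3L together made up 88.3% and 88.7% of the TPM of the 3 receptors in brain and 65.5% and 64.3% in spleen. The FUNDC1 level in these shares includes FUNDC1-202, the form without a defined coding sequence, which took more of the gene in spleen. These shares are descriptions, since an exact permutation test of 2 libraries against 2 cannot give a p under 0.33. In RNA of a whole library, fewer cells that carry a transcript and less transcript per cell cannot be told apart.

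**Figure D2:**
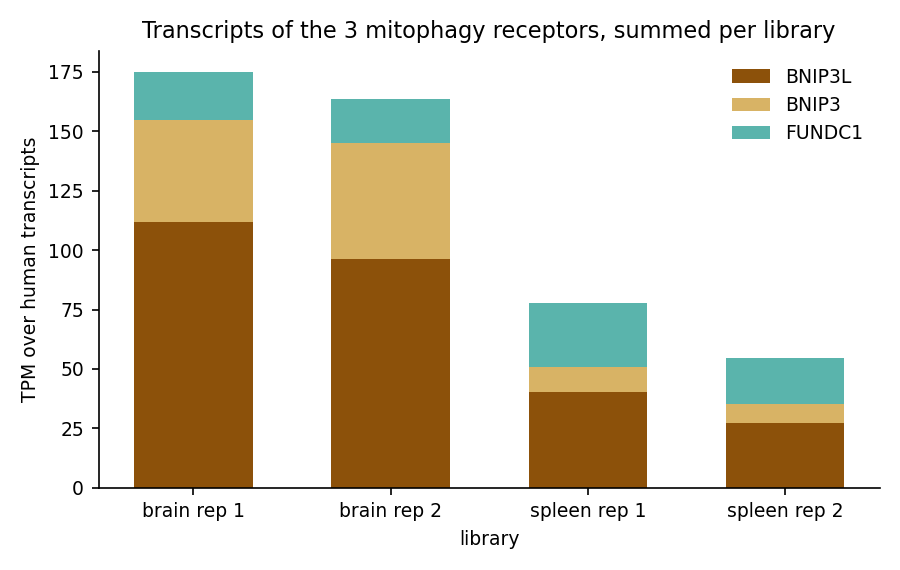
TPM over human transcripts of BNIP3L, BNIP3 and FUNDC1, stacked for each library. FUNDC1 forms 11.7% and 11.3% of the column of each brain library and 34.5% and 35.7% in spleen, where the columns are lower. Its part includes FUNDC1-202, the form without a defined coding sequence.

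Among the proteins induced by hypoxia, FAM162A (ENSG00000114023, chromosome 3, 122384161 to 122412334), a HIF-responsive mitochondrial protein linked to cell death, had 46.7 and 41.9 CPM in brain and 23.4 and 26.2 CPM in spleen. The groups did not overlap. It rose by 0.84 ± 0.16 (log2, SE; 95% interval 0.46 to 1.21; adjusted p = 0.0488), with 0.99 and 0.68 within the occasions. This call lay at the threshold. It ended with RLE factors (adjusted p = 0.0595), with the stricter filter (0.0599), among protein-coding genes alone (0.0554), with gene sums of the transcript files (0.0522), by DESeq2 with the replicate number as a block (0.0767), without brain replicate 1 (0.375) and without brain replicate 2 (0.146). Over the 15 alternatives its log2 fold change ranged from 0.71 to 0.93 and its adjusted p from 4.08e-06 to 0.375.

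HIGD1A (ENSG00000181061, chromosome 3, 42782908 to 42804490), a small inner-membrane protein that binds cytochrome c oxidase, had 71.1 and 63.8 CPM in brain and 87.0 and 80.4 CPM in spleen. It is often listed as a HIF target, yet both brain libraries were lower than both spleen libraries. Its log2 fold change was -0.31 ± 0.15 (95% interval -0.65 to 0.03; adjusted p = 0.277). It passed as lower in brain without spleen replicate 1 (adjusted p = 0.0110), without spleen replicate 2 (0.00910), and with both the GC and length correction and the replicate block (0.0474); over all alternatives the adjusted p ran from 0.00910 to 0.909. The main HIGD1A transcript is also poor in GC (37.2%, under all but 6.00% of tested genes). With the GC and length trend taken out, without the block, edgeR gave HIGD1A a log2 fold change of -0.49 (adjusted p = 0.135). The median of all genes in that fit was -0.074, and the part of GC was not tested. The HIGD1A relative HIGD2A had a log2 fold change of -0.37 ± 0.17 (adjusted p = 0.265).

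NDUFA4L2 (ENSG00000185633, chromosome 12, 57234903 to 57240715) was close to the limit of detection. It had 45 and 59 counts in brain and 28 and 29 in spleen, or 1.22 and 1.73 against 0.849 and 1.15 CPM. The log2 fold change was 0.57 ± 0.36 (adjusted p = 0.410), and the 95% interval from -0.27 to 1.41 leaves room for a 2.65-fold rise as well as for a small fall. Per length, NDUFA4, the constitutive relative, exceeded NDUFA4L2 by 26.7 and 24.9 times in brain and by 65.5 and 45.9 times in spleen. In brain replicate 1, 29.8% of the NDUFA4L2 TPM came from 1 estimated count on a transcript of 214 bases without a defined coding sequence. That transcript had 0 counts in the other libraries. The ratio of brain replicate 1 is therefore loosely set. NDUFA4 itself had 62.9 and 61.1 TPM in brain and 71.9 and 61.8 TPM in spleen. Of markers of pericytes, cells known to express NDUFA4L2, ACTA2 had 0.293 to 0.649 CPM, RGS5 1.03 to 2.03, TAGLN 6.25 to 8.05 and PDGFRB 142 to 174 CPM; the 4 summed to 159 and 183 CPM in brain and 152 and 176 CPM in spleen, and their part in the NDUFA4L2 level was not tested.

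COX4I2 (ENSG00000131055, chromosome 20, 31637912 to 31645006) had 0 counts in all 4 libraries, which allows up to 3 counts, or 0.0813 to 0.114 CPM, in a library; this floor covers counting error only. COX4I1, the subunit it can replace, had 642 and 637 TPM in brain and 768 and 918 TPM in spleen. COX4I2 was thus not detectable at this depth. By counts COX4I1 averaged 259 ± 10.5 CPM in brain against 381 ± 71.6 CPM in spleen (SD, n = 2 each), a difference of -0.56 ± 0.16 (log2) that missed the threshold (adjusted p = 0.120). LONP1 (ENSG00000196365, chromosome 19, 5691834 to 5720572), the matrix protease, had 96.6 and 91.7 CPM in brain and 90.7 and 105 CPM in spleen. Its groups overlapped, and its log2 fold change was -0.053 ± 0.15 (95% interval -0.39 to 0.29; adjusted p = 0.868). That interval excludes a rise of more than 1.22-fold. The sign of LONP1 turned without spleen replicate 2 (0.066), and within the occasions it was 0.09 and -0.19.

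**Figure D3:**
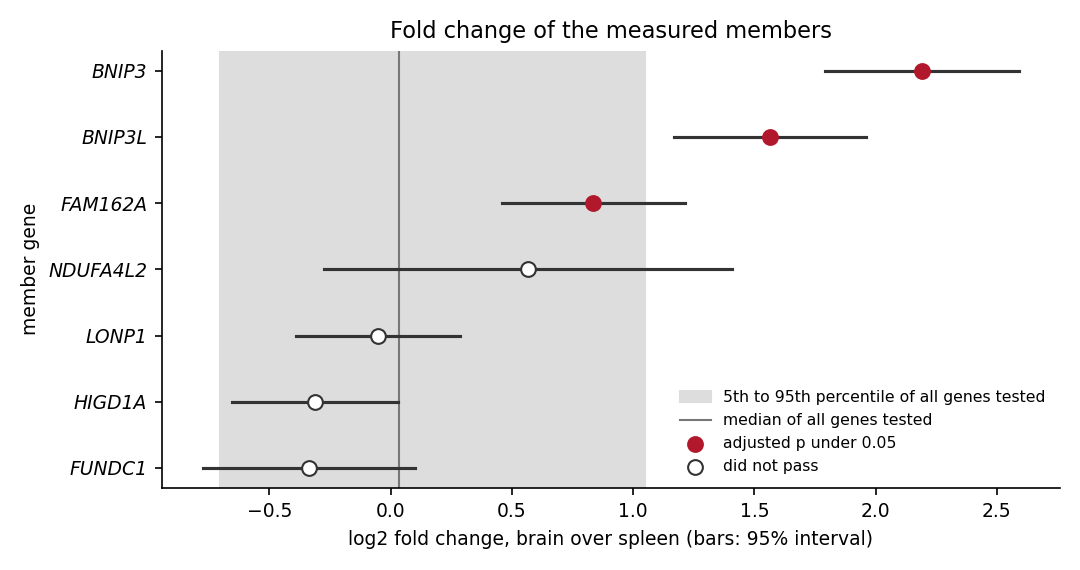
Log2 fold change of brain over spleen for the 7 members tested, with 95% intervals; filled points passed an adjusted p of 0.05, and the grey band spans the 5th to 95th percentile of all genes tested (-0.70 to 1.05). BNIP3 and BNIP3L lie above the band, with intervals from 1.79 and 1.17 upwards, and the other 5 lie inside it.

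Counted by overlap alone, 4 of the 7 measured members had both brain libraries above both spleen libraries, 2 had both below and 1 overlapped. Over all genes tested these shares were 30.2% above and 26.7% below, 57% in either direction, so that a lack of overlap by itself says little with 2 libraries a group.

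At the level of transcripts, BNIP3 was carried by 2 coding forms. BNIP3-202 took 24.3% and 30.2% of the TPM of the gene in brain and 13.6% and 15.5% in spleen, and BNIP3-201 the rest. Both forms were higher in brain: BNIP3-201 had 32.5 and 33.99 TPM in brain against 9.20 and 6.59 TPM in spleen, and BNIP3-202 had 10.4 and 14.7 against 1.44 and 1.20 TPM. BNIP3L kept its composition, with BNIP3L-201 at 69.4% and 74.6% in brain and 70.8% and 72.8% in spleen. FAM162A-201 made up 79.4% to 86.1% of FAM162A and HIGD1A-201 88.7% to 95.6% of HIGD1A in the 4 libraries. For NDUFA4L2 the split between NDUFA4L2-201 and NDUFA4L2-202 differed from library to library (NDUFA4L2-201 at 29.8% and 78.9% in brain), at too few counts to describe. Shares of transcripts were estimated by kallisto and were not tested.

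The other genes of the pathway were read from 10 lists. In 9 of them edgeR called 0 of 77 genes tested, where 2.02% of all genes were called. At that share few calls would fall among 77 genes, so the 0 says little by itself. At an unadjusted p under 0.05 by edgeR, 10.7% of all genes were higher and 9.94% lower. DESeq2 called 2.72% of all genes and edgeR with the replicate block 10.9%. The counts given below for each list are to be read beside these shares. Other receptors and adaptors of mitophagy had a median log2 fold change of -0.030 over 11 genes. PHB2, an inner-membrane receptor, was at -0.25 ± 0.15 and FKBP8, an outer-membrane receptor, at -0.35 ± 0.16. At an unadjusted p under 0.05, 1 was higher and 1 lower; DESeq2 called 1 as higher, OPTN, an autophagy adaptor of ubiquitin-marked mitochondria (log2 fold change 0.77 ± 0.19, adjusted p = 0.0879; by DESeq2 0.0359), and with the replicate block 2 were higher, OPTN (0.0131) and TAX1BP1. OPTN, like each gene named in these lists only for a call by DESeq2 or the block, was chosen after its values were seen.

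Of 10 tested genes of the PINK1 route, which marks damaged mitochondria with ubiquitin, 0 passed, with a median of 0.14. MFN2 was at -0.16 ± 0.14 and RHOT2 at -0.28 ± 0.14. At an unadjusted p under 0.05, 1 was higher and 1 lower; DESeq2 called 1 as lower, PARL (log2 fold change -0.67, adjusted p by DESeq2 = 0.0423), the protease that cleaves PINK1, and with the block 2 were higher (USP15 and USP8) and 1 lower (PARL).

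Genes that control the receptors had a median of -0.053 over 10 tested, with CSNK2A1 and CSNK2A2, catalytic subunits of the casein kinase that phosphorylates FUNDC1, at -0.081 ± 0.14 and -0.026 ± 0.14; both signs turned without spleen replicate 2 (0.035 and 0.068). FBXL4, a subunit of the ubiquitin ligase that sends BNIP3 and BNIP3L to degradation, had 61.3 and 59.3 CPM in brain and 40.5 and 28.8 CPM in spleen. The difference, 0.80 ± 0.19 on the log2 scale, missed the threshold (adjusted p = 0.0860), but passed it by DESeq2 (0.0207) and with the block (0.00442). FBXL4 was picked after its values were seen, as was PGAM5, the phosphatase that activates FUNDC1, which was at -0.60 ± 0.20 (adjusted p = 0.151) and passed as lower with the block (0.0485). At an unadjusted p under 0.05 the list had 1 higher and 1 lower. LC3 and GABARAP proteins, the binding partners of the receptors, had 5 genes tested, a median of -0.058 and 1 gene lower at an unadjusted p under 0.05, GABARAP (-0.52 ± 0.21, adjusted p = 0.230); GABARAPL2 was at -0.15 ± 0.15, and DESeq2 and the block called 0.

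Constitutive counterparts and relatives of the members had a median of -0.46 and a negative log2 fold change in 4 of 4 tested. Proteases and chaperones that keep mitochondrial proteins in order had a median of -0.22 over 14, with HSPD1 at -0.24 ± 0.13 and HSPA9 at -0.23 ± 0.13. Genes of mitochondrial content, taken as a guide to the mass of the organelle, had a median of -0.36 with 11 of 12 negative; SLC25A3, the phosphate carrier, was at -0.43 ± 0.16 and SLC25A5, an ADP/ATP carrier, at -0.32 ± 0.14. At an unadjusted p under 0.05 the numbers lower were 1, 4 and 6 in these 3 lists and the numbers higher 0; DESeq2 called 0, 0 and 1 (TOMM40), and the block 0, 0 and 1 (PHB1). The median of all genes was 0.036, and 9.94% of all genes were lower at an unadjusted p under 0.05 by edgeR. Fission and fusion genes had a median of 0.068 over 8, with DNM1L at 0.18 ± 0.19 (-0.14 with the GC and length trend taken out) and OPA1 at 0.41 ± 0.36; 0 had an unadjusted p under 0.05, and DESeq2 and the block called 0. Of 3 regulators of COX4I2, CHCHD2 was at -0.54 ± 0.16 and RBPJ at 0.40 ± 0.15; both had an unadjusted p under 0.05, 1 in each direction, and DESeq2 and the block called 0. RBPJ turned to -0.066 once the GC and length trend was taken out. In these 9 lists edgeR still called 0 without either brain library, and DESeq2 with the replicate block called 0 as well, so that OPTN, PARL, FBXL4 and the other genes named for a call by DESeq2 or by the block did not pass there. The 0 calls depended on the spleen libraries: fits without spleen replicate 1 or without spleen replicate 2 called some of these genes. Those fits also called a far larger share of all genes, so such calls are no result about the lists.

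Hypoxia response genes outside the members gave the contrast. Of 14 tested, 11 rose, 0 fell and 3 did not pass, with a median of 1.56. Over all genes tested, 1.63% were called as higher. CA9 had 0 counts. ADM, a vasodilator peptide, went from 0.0653 ± 0.0364 CPM in spleen to 3.04 ± 0.0117 CPM in brain (log2 fold change 5.40 ± 0.47). It had 112 and 104 counts in brain but 3 and 1 in spleen, at or under the floor of 3 counts. The size of its fold change is therefore loosely set. On the log2 scale the repressor BHLHE40 rose by 4.08 ± 0.19, VEGFA by 3.27 ± 0.23 and EGLN3, a prolyl hydroxylase of HIF, by 2.73 ± 0.47. The call of EGLN3, at 4 to 43 counts in a library, ended without brain replicate 1 (adjusted p = 0.0549); it was not tested with the stricter filter and had no adjusted p by DESeq2, with or without the block. The members BNIP3, BNIP3L, FAM162A and NDUFA4L2 lie within the wide range of these genes (0.21 to 5.40), though NDUFA4L2 did not pass. FUNDC1, HIGD1A and LONP1 lie below its lowest value, that of PGK1. The list was drawn up with its behaviour at these sites known and is no independent support.

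**Figure D4:**
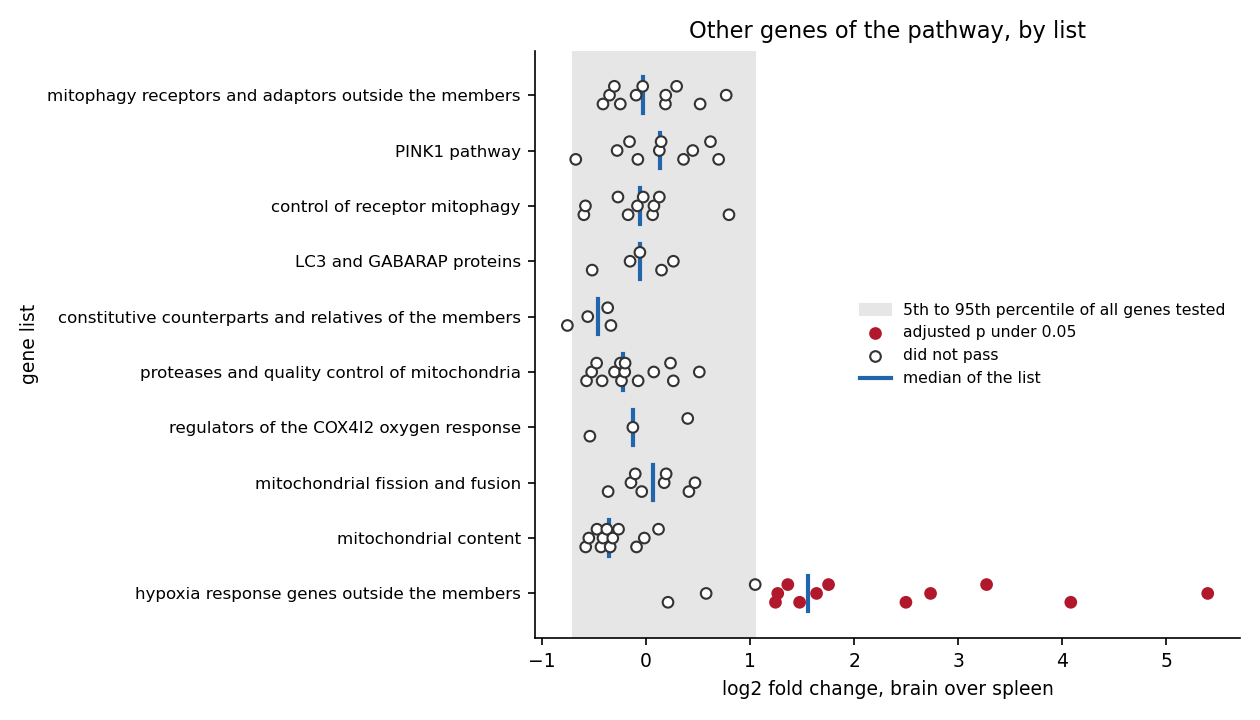
Log2 fold change of brain over spleen for each tested gene of the 10 lists; filled points passed an adjusted p of 0.05, blue bars are list medians and the grey band spans the 5th to 95th percentile of all genes tested. Called points occur in the hypoxia list alone, where 11 of 14 passed, and the mitochondrial content list has 11 of 12 points below 0.

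The genes whose levels over the 4 libraries were most like those of BNIP3 were RGS2, a regulator of G protein signalling, SLCO4C1, an organic anion transporter, HSPA6, a stress-inducible chaperone, NDRG1, a stress-response gene, and HMGCS1, an enzyme of sterol synthesis. Likeness was the distance between centred log2 CPM values over 4 libraries, among 10089 protein-coding genes with a mean of at least 5 CPM, and ran from 0.291 for RGS2 to 0.397 for HMGCS1. BNIP3L ranked 23rd by this measure (0.658) and FAM162A 344th (1.41), whereas LONP1, HIGD1A and FUNDC1 ranked 5766th, 8091st and 8208th. With 4 points, such distances mostly reflect the size of the difference between the sites.

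**Figure D5:**
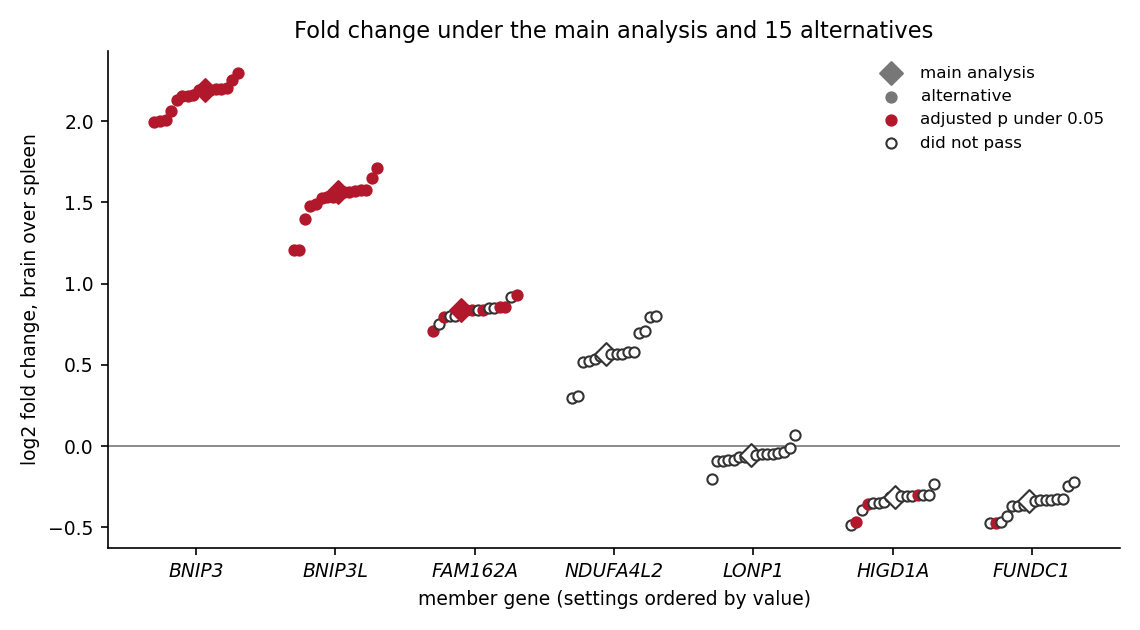
Log2 fold change of each measured member under the main analysis (diamond) and 15 alternatives (points, in order of value); filled marks passed an adjusted p of 0.05. BNIP3 (2.00 to 2.29) and BNIP3L (1.21 to 1.71) passed in all 15, FAM162A passed in 8, and NDUFA4L2 and LONP1 in 0.

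Across processing choices the calls of the members held to an unequal extent. BNIP3 was called in 15 of 15 alternatives, at log2 fold changes from 2.00 to 2.29, and BNIP3L in 15 of 15, from 1.21 to 1.71. FAM162A was called in 8 of 15, HIGD1A in 3, FUNDC1 in 1, and NDUFA4L2 (0.29 to 0.80) and LONP1 (-0.20 to 0.066) in 0. The shares of all genes called give the measure for these counts: 2.10% with RLE factors, 2.72% by DESeq2, 6.15% with no filter, 1.38% with the stricter filter, 1.54% among protein-coding genes, 2.01% with transcript sums, 10.9% with the replicate block, 1.24% by DESeq2 with the block, 4.2% with the GC and length trend taken out, 13.5% with that and the block, 2.25% and 3.09% without brain replicates 1 and 2, 37.9% and 17.3% without spleen replicates 1 and 2, and 2.02% with copies summed. The calls of HIGD1A and FUNDC1 thus came only in fits that called 13.5% or more of all genes. FAM162A passed by DESeq2 and with copies summed, a fit that leaves the counts of FAM162A unchanged. Its other calls came in fits that called 4.2% or more of all genes.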

How the data were processed

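Libraries were TruSeq Stranded mRNA libraries of SEM cells from a Ficoll gradient, per the labels' protocols; purity by flow cytometry was determined, with no values in the sources used here. The submitters' processing notes list kallisto 0.42.4, cutadapt 1.5, bcl2fastq 1.8.4 and DESeq2, and the builds GRCh38 and GRCm38, without settings or annotation release. The deposited table of genes gives estimated counts, rounded to whole numbers and not normalised. Deposited files per transcript give estimated counts and TPM over human and mouse transcripts together; TPM was rescaled here to human transcripts. With GENCODE release 44, 83.9% to 85.2% of genes over 50 counts equalled their transcript sums within 1 count. The count table and a deposited log2 table (not used) each hold 1 column that matches no sample; neither was used.

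Brain was compared with spleen by edgeR 4.0.16 (quasi-likelihood test, robust fit, TMM factors, filterByExpr, R 4.3.3) on the rounded counts, with Benjamini-Hochberg adjustment over 17075 genes; levels are CPM, means are given ± SD over 2 libraries, and fold changes ± the SE implied by the test. The fit was tested on simulated data. Each library counted as a replicate because the replicate number stands for an occasion of the experiment. Libraries within each group differed beyond sampling noise (mean chi-square per gene 9.37 in brain, 67.3 in spleen). That value does not tell biological from technical spread. The p-values measure the spread between these pooled libraries only. The main fit was unpaired, since the submitters give no design. As the labels make the replicate number an occasion, it paired libraries in the alternatives with a block and in the differences within occasions. Deviations of same-numbered libraries correlated at 0.0269 (Pearson, across genes). Alternatives were RLE factors, DESeq2 1.42.0, other filters, transcript sums, the replicate block, removal of a GC and length trend, and leaving out each library. Named genes were all members, up to 4 called genes of each list (or its 2 of highest level), and the 5 most like the strongest member. The members and lists were chosen with earlier results of these data known. Promoter windows are RefSeq's.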

Additional observations from a re-analysis of the deposited data

How the results depend on the processing

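BNIP3 and BNIP3L kept direction and call in all 15 alternatives. The count of members called stayed at 2 to 4 except without spleen replicate 2 (5); leaving out 1 library in turn gave 2 to 5. The count of all genes called was 941 by DESeq2 (533 higher, 408 lower, against 279 and 66 in the main analysis), 2123 with no filter (1269 and 854), 187 with the stricter filter, 201 among protein-coding genes alone (184 and 17), 1853 with the replicate block (1278 and 575), 718 with the GC and length trend taken out (439 and 279) and 2304 with that and the block (1165 and 1139). Leaving out 1 library gave 404 to 6807, the highest without spleen replicate 1 (3392 higher, 3415 lower), then 3128 without spleen replicate 2 and 551 without brain replicate 2; the lone library is then taken to be as variable as the other arm. The cause of these shifts was not tested. DESeq2 with the replicate block called 427. Added to the main edgeR analysis, the replicate block changed no call of a member; added to DESeq2 it ended that of FAM162A, and added to the fit with the GC and length trend taken out it brought HIGD1A past the threshold as lower (adjusted p 0.135 without the block, 0.0474 with it). Taking out the GC and length trend moved the median of all genes from 0.036 to -0.074, so that fit reads lower by 0.11.

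Of the 9 lists with 0 calls, no filter gave 1 call in other receptors and adaptors, 2 in the PINK1 route, 2 in control of the receptors, 1 in LC3 and GABARAP, 1 in the counterparts, 3 in the proteases, 1 in the COX4I2 regulators and 3 in content. DESeq2 gave 1 each in other receptors, the PINK1 route, control of the receptors and content. The replicate block gave 2, 3, 2 and 1 in these 4. Trend removal gave 1 in control of the receptors, and with the block 2 in other receptors, 1 in the PINK1 route, 2 in control of the receptors, 2 in the counterparts, 2 in the proteases and 1 in content. Leaving out 1 library gave 0 to 7 in other receptors, 0 to 7 in the PINK1 route, 0 to 4 in control of the receptors, 0 to 2 in LC3 and GABARAP, 0 to 3 in the counterparts, 0 to 12 in the proteases, 0 to 3 in the COX4I2 regulators, 0 to 4 in fission and fusion, 0 to 11 in content and 10 to 14 in hypoxia response.

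Signs turned for genes near 0: LONP1 between -0.203 and 0.0656 over the left-out libraries, CSNK2A1 (-0.229 to 0.0349) and CSNK2A2 (-0.153 to 0.0677) likewise, CSNK2A2 also at 0.0591 after trend removal and 0.0579 with the block added, RBPJ at -0.0658 and -0.0543 in these fits, and DNM1L at -0.136 and -0.135 in them and -0.0521 to 0.414 over left-out libraries. With gene counts over the effective length of the main transcript, 18 of 20 group levels moved by more than 1 SD, and with TPM over both species 3 did. Depth limits NDUFA4L2 and COX4I2.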

Other observations

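Counts assigned to single BNIP3 pseudogene copies, picked after their values were seen, did not all follow the parent gene. BNIP3P41 had 43 and 46 counts in brain and 15 and 2 in spleen. BNIP3P17 had 58 and 81 counts in brain and 70 and 29 in spleen, and BNIP3P9 35 and 37 against 30 and 24. Reads of such copies and of BNIP3 cannot be told apart with certainty at the level of estimated counts. HIGD1A has 17 annotated copies in the table, 4 of them with counts, which took at most 0.114% of the counts of gene plus copies.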
